A study of Neurospora crassa with 3 samples.

Results

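The genes described here are 8 genes of the sexual cycle of *Neurospora crassa*, a filamentous ascomycete fungus. They are matA-1 (NCU01958), matA-2 (NCU01959) and matA-3 (NCU01960) of the mat A mating-type locus, the pheromone precursor gene ccg-4 (NCU02500), the pheromone receptor genes pre-1 (NCU00138) and pre-2 (NCU05758), the perithecial pigment gene per-1 (NCU03584) and the ascus development gene asd-1 (NCU05598). They were chosen by locus tag, 8 of the 9730 genes in the files, and all 8 carried the same symbol in the RefSeq table of assembly NC12.

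*Neurospora crassa* has a pair of mating types, A and a, set by a single locus whose forms carry unrelated sequences. A nitrogen-starved culture forms female organs, the protoperithecia, whose hyphae grow toward cells of the other mating type by sensing their peptide pheromone through a receptor of the G-protein-coupled class. Fertilised protoperithecia become dark perithecia, in which asci with ascospores form. The mat A form encodes an alpha-domain regulator, MATA-1, which sets mating identity, together with MATA-2 and the HMG-box protein MATA-3, which act after fertilisation.

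Poly-A RNA was sequenced from shaken liquid cultures grown for 18 h at 32 °C in Vogel's medium with the labels mycelia and germinated conidia, and the labels mention no cross. Each of 3 genotypes had 2 libraries. The genotype labelled set-2 H3G34R (strain N6777, both libraries) carries arginine in place of glycine at position 34 of histone H3 and is described as lacking set-2, which encodes an H3K36 methyltransferase. The genotype labelled set-2 ash1(Y888F) (strains N6266 and N6267) carries a change in ASH1, the other H3K36 methyltransferase of this fungus, and is also described as lacking set-2. The genotype H3G34R (strains N5247 and N5248) carries the H3 change alone. Every library thus carries a change that bears on H3K36 methylation, and the submitters' wild-type controls, deposited elsewhere, were not analysed here. Both libraries of set-2 H3G34R share their strain, with no statement that they were separate cultures, so their spread, and any p-value that rests on it, may be technical. The labels do not give the mating type of any strain; reads of matA-1, matA-2 and matA-3 were present in all 6 libraries, and the genes of the mat a form were not analysed here.

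Sense reads in genes numbered 7519427 to 9830948 per library, and 3 reads, the one-sided limit taken for a count of 0 (the two-sided exact 95% Poisson limit is 3.69 reads), were worth 0.287 to 0.445 CPM (reads per 1000000 sense reads, after scaling between libraries) across libraries. Counting limits cover counting error only. The set-2 gene (NCU00269), at 30.2 and 30.2 CPM in the libraries labelled set-2 H3G34R, 23.2 and 18.3 CPM in the pair labelled set-2 ash1(Y888F), and 31.0 and 24.1 CPM in H3G34R, had reads where the design describes a deletion, so genotypes are called by their labels and every direction below rests on those labels. The ash1 gene (NCU01932, set-3 in NC12) had 71.6 and 71.5 CPM in set-2 H3G34R, 91.6 and 90.1 CPM in set-2 ash1(Y888F), and 149 and 148 CPM in H3G34R, and a single-residue change in ASH1 or H3 cannot be checked from gene counts. The summed level of 5 conidiation genes (con-6, con-8, con-10, eas and fl), markers of the asexual spore pathway, was 615 and 1292 CPM in set-2 H3G34R, 265 and 348 CPM in set-2 ash1(Y888F) and 172 and 236 CPM in H3G34R, with no marker at 0 in any library. Of these 5 markers, 4 were called higher and 0 lower in set-2 H3G34R than in H3G34R, 0 higher and 1 lower in set-2 ash1(Y888F) than in H3G34R, and 3 higher and 0 lower in set-2 H3G34R than in set-2 ash1(Y888F), where 61.7%, 51.8% and 38.1% of all 8561 genes tested were called in these comparisons in turn; their part in the results below was not tested.

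In the libraries labelled set-2 H3G34R, the pheromone precursor gene ccg-4, the pigment gene per-1 and the mating-type genes matA-2 and matA-3 were lower than in H3G34R, while asd-1 and matA-1 were higher. These were 6 of the 8 genes (2 higher, 4 lower), where 61.7% of all 8561 genes tested were called (30.7% higher and 31.1% lower), so a count of this size is close to the background. In set-2 ash1(Y888F), 6 of the 8 were again called against H3G34R (1 higher, 5 lower), against a background of 51.8% (26.3% higher and 25.5% lower). Between the genotypes labelled set-2, 5 of the 8 were called and all 5 were higher in set-2 H3G34R, against a background of 38.1% (18.2% higher and 19.9% lower). The median log2 difference of the 8 genes was −0.78, −2.06 and 1.14 in these comparisons in turn, against −0.01, −0.00136 and 0.02 over all genes tested. Calls are those of the quasi-likelihood test of edgeR, adjusted by the Benjamini-Hochberg method over all genes tested, at an adjusted p under 0.05, and all 8 genes passed the filter on low counts. The last count fell when either set-2 H3G34R library was left out. Such fits keep 1 library of that genotype and have fewer degrees of freedom for every gene. The share of all genes called in them is not given here. The 3 comparisons use the same 6 libraries and are not independent of each other. Groups said below not to overlap hold 2 libraries each, and the share of all genes without overlap is not given here. In RNA from whole cultures, fewer cells of a type and less RNA per cell cannot be told apart.

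**Figure D1:**
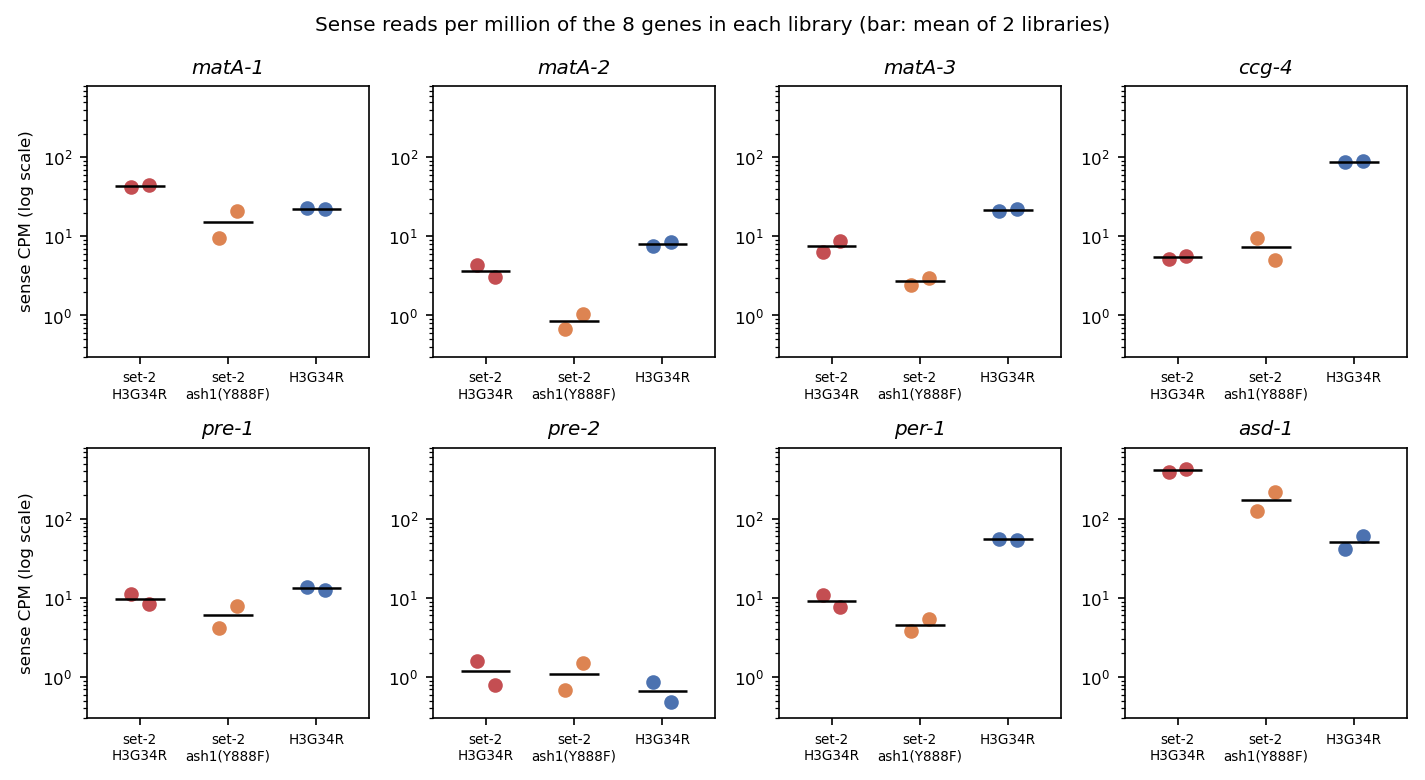
Sense level (CPM, log scale) of each of the 8 genes in each library, with set-2 H3G34R on the left, set-2 ash1(Y888F) in the middle and H3G34R on the right; points are libraries and bars are means of 2 libraries. The 2 H3G34R libraries sit at 88.0 and 88.9 CPM for ccg-4, above all 4 libraries labelled set-2 (5.05 to 9.49 CPM), whereas for asd-1 they sit lowest.

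Of the mating-type genes, matA-1 had 42.6 and 45.0 CPM in set-2 H3G34R, 9.49 and 20.8 CPM in set-2 ash1(Y888F), and 23.0 and 22.1 CPM in H3G34R. The set-2 H3G34R libraries were highest and overlapped neither other group, and the set-2 ash1(Y888F) libraries were lowest. In set-2 H3G34R, matA-1 was 1.94-fold higher than in H3G34R (log2 0.96, SE 0.304, edgeR adjusted p = 0.0301). That call ended without any 1 of the 4 libraries compared, at edgeR adjusted p from 0.104 to 0.129. It was 2.90-fold higher in set-2 H3G34R than in set-2 ash1(Y888F) (log2 1.54, SE 0.319, edgeR adjusted p = 0.0108), a call lost without the first or the second N6777 library (edgeR adjusted p = 0.0597 and 0.0700). Against H3G34R, matA-1 in set-2 ash1(Y888F) differed by a log2 value of −0.58 (SE 0.321, edgeR adjusted p = 0.167). Without N6267 that value was −1.25, resting on N6266 alone at 9.49 CPM, while N6267 at 20.8 CPM was just below both H3G34R libraries. The N6266 and N6267 libraries differed by 1.05 in log2(CPM + 1) of matA-1, more than 96.1% of genes with a mean of at least 1 CPM.

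The HMG-box gene matA-3 had 6.36 and 8.64 CPM in set-2 H3G34R, 2.44 and 2.97 CPM in set-2 ash1(Y888F), and 21.1 and 21.99 CPM in H3G34R. The groups did not overlap, and the order of the genotypes differed from that of matA-1: H3G34R was highest. It was 2.88-fold lower in set-2 H3G34R than in H3G34R (log2 −1.53, SE 0.210, edgeR adjusted p = 0.00104). In set-2 ash1(Y888F) it was 7.96-fold lower than in H3G34R (log2 −2.99, SE 0.247, edgeR adjusted p = 2.25e-04). It was also 2.76-fold higher in set-2 H3G34R than in set-2 ash1(Y888F) (log2 1.47, SE 0.262, edgeR adjusted p = 0.00678).

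The gene matA-2 followed the same order at fewer reads, 43 and 27 in set-2 H3G34R, 5 and 7 in set-2 ash1(Y888F), and 79 and 90 in H3G34R. Exact 95% Poisson intervals ran from 1.62 to 11.7 reads for the count of 5 in N6266 and from 2.81 to 14.4 reads for the count of 7 in N6267. Levels were 3.69 ± 0.926 CPM in set-2 H3G34R, 0.859 ± 0.256 CPM in set-2 ash1(Y888F) and 8.11 ± 0.702 CPM in H3G34R (SD, n = 2 each), with no overlap between groups. Against H3G34R, matA-2 was 2.19-fold lower in set-2 H3G34R (log2 −1.13, SE 0.275, edgeR adjusted p = 0.0108) and 9.39-fold lower in set-2 ash1(Y888F) (log2 −3.23, SE 0.363, edgeR adjusted p = 6.57e-04). The first of these calls ended without N5248 (edgeR adjusted p = 0.0671) or without the second N6777 library (0.0708). In set-2 H3G34R, matA-2 was 4.29-fold higher than in set-2 ash1(Y888F) (log2 2.10, SE 0.395, edgeR adjusted p = 0.00802).

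Within the locus, the balance of the genes differed between genotypes. For each matA-1 read there were 0.149 and 0.192 matA-3 reads in set-2 H3G34R, 0.257 and 0.143 in set-2 ash1(Y888F), and 0.916 and 0.996 in H3G34R. For matA-2 the ratios to matA-1 were 0.102 and 0.0673 in set-2 H3G34R, 0.0714 and 0.05 in set-2 ash1(Y888F), and 0.331 and 0.390 in H3G34R. In both ratios the 4 libraries labelled set-2 overlapped each other and lay below both H3G34R libraries. These ratios compare reads within a library and do not depend on the scaling between libraries; they were chosen after their values were seen and were not tested.

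**Figure D2:**
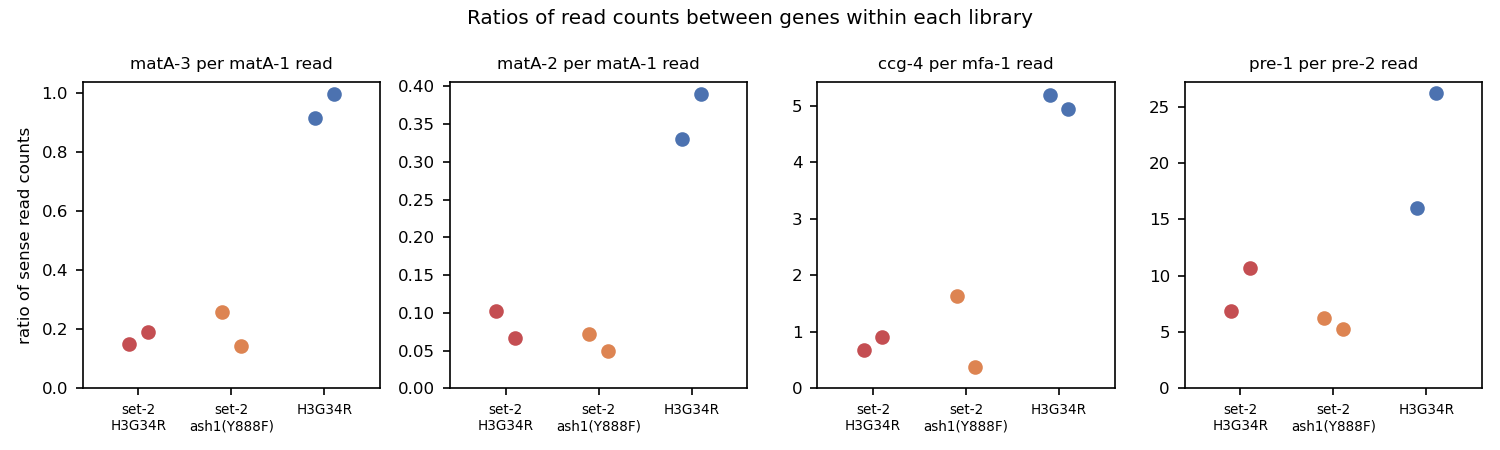
Ratios of sense read counts between pairs of genes within each library, from left to right matA-3 to matA-1, matA-2 to matA-1, ccg-4 to mfa-1 and pre-1 to pre-2, with set-2 H3G34R, set-2 ash1(Y888F) and H3G34R on the horizontal axis of each panel; each point is a library and every axis starts at 0. The H3G34R libraries lie above the 4 others in each panel, for example at 0.916 and 0.996 matA-3 reads per matA-1 read, against 0.143 to 0.257. The pre-1 to pre-2 ratios rest on 5 to 16 pre-2 reads per library, where counting error is wide.

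The pheromone precursor gene ccg-4, first isolated as a clock-controlled gene, encodes the peptide that mat A cells release. It had 5.15 and 5.72 CPM in set-2 H3G34R, 9.49 and 5.05 CPM in set-2 ash1(Y888F), and 88.0 and 88.9 CPM in H3G34R. The H3G34R libraries stood far above the 4 libraries labelled set-2, which overlapped each other. It was 16.3-fold lower in set-2 H3G34R than in H3G34R (log2 −4.02, SE 0.264, edgeR adjusted p = 8.36e-05) and 12.1-fold lower in set-2 ash1(Y888F) than in H3G34R (log2 −3.59, SE 0.261, edgeR adjusted p = 1.36e-04). For set-2 H3G34R against set-2 ash1(Y888F) the log2 difference was −0.43 (SE 0.289, edgeR adjusted p = 0.279), and its sign depended on a library: it was 0.10 without N6266 (edgeR adjusted p = 0.812) and −0.81 without N6267 (edgeR adjusted p = 0.0132).

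The pheromone gene of the other mating type, mfa-1 (NCU16992), was not among the 8 but gives the comparison for ccg-4. Its levels were 7.67 and 6.28 CPM in set-2 H3G34R, 5.83 and 13.2 CPM in set-2 ash1(Y888F), and 17.0 and 18.0 CPM in H3G34R, so that here too both H3G34R libraries were highest. The ratio of ccg-4 to mfa-1 reads was 0.671 and 0.911 in set-2 H3G34R, 1.63 and 0.382 in set-2 ash1(Y888F), and 5.19 and 4.95 in H3G34R. Against H3G34R, mfa-1 was 2.50-fold lower in set-2 H3G34R (log2 −1.32, SE 0.350, edgeR adjusted p = 0.0153), a call that ended without any 1 of the 4 libraries compared (edgeR adjusted p from 0.0570 to 0.103). In set-2 ash1(Y888F) it differed from H3G34R by a log2 value of −0.88 (SE 0.349, edgeR adjusted p = 0.0714). Without N6267 that value was −1.58, resting on N6266 alone at 5.83 CPM, while N6267 at 13.2 CPM was nearer to H3G34R.

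Of the receptor genes, pre-1, which encodes the receptor that mat A cells use to sense the MFA-1 pheromone, had 11.1 and 8.42 CPM in set-2 H3G34R, 4.202 and 7.87 CPM in set-2 ash1(Y888F), and 13.9 and 12.5 CPM in H3G34R. The groups did not overlap, with H3G34R highest and set-2 ash1(Y888F) lowest, and only the difference between that pair was called. In set-2 ash1(Y888F) it was 2.20-fold lower than in H3G34R (log2 −1.14, SE 0.313, edgeR adjusted p = 0.0214). This call ended without N5247 (edgeR adjusted p = 0.0982), N5248 (0.0673) or N6266 (0.0561). In set-2 H3G34R it differed from H3G34R by a log2 value of −0.43 (SE 0.290, edgeR adjusted p = 0.231) and from set-2 ash1(Y888F) by 0.70 (SE 0.320, edgeR adjusted p = 0.126). Without N6267 the second value was 1.22, resting on N6266 alone at 4.202 CPM, while N6267 at 7.87 CPM was nearer to set-2 H3G34R.

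The gene pre-2, which encodes the receptor for CCG-4 used by mat a cells, had 16 and 7 reads in set-2 H3G34R, 5 and 10 in set-2 ash1(Y888F), and 9 and 5 in H3G34R. In CPM these counts were 1.61 and 0.785 in set-2 H3G34R, 0.678 and 1.48 in set-2 ash1(Y888F), and 0.867 and 0.478 in H3G34R, and the groups overlapped. No comparison of pre-2 passed the threshold, with log2 differences of 0.84 (SE 0.611, edgeR adjusted p = 0.266) for set-2 H3G34R against H3G34R, 0.66 (SE 0.662, edgeR adjusted p = 0.433) for set-2 ash1(Y888F) against H3G34R and 0.19 (SE 0.608, edgeR adjusted p = 0.835) for set-2 H3G34R against set-2 ash1(Y888F). There were 6.88 and 10.7 pre-1 reads per pre-2 read in set-2 H3G34R, 6.20 and 5.30 in set-2 ash1(Y888F), and 16.0 and 26.2 in H3G34R.

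The gene per-1 encodes a polyketide synthase needed for the dark pigment of the perithecium wall. It had 10.8 and 7.63 CPM in set-2 H3G34R, 3.80 and 5.35 CPM in set-2 ash1(Y888F), and 55.4 and 54.5 CPM in H3G34R. The groups did not overlap, and the pair of H3G34R libraries stood well above the rest. It was 5.94-fold lower in set-2 H3G34R than in H3G34R (log2 −2.57, SE 0.218, edgeR adjusted p = 1.78e-04) and 12.05-fold lower in set-2 ash1(Y888F) than in H3G34R (log2 −3.59, SE 0.243, edgeR adjusted p = 1.05e-04). It was 2.03-fold higher in set-2 H3G34R than in set-2 ash1(Y888F) (log2 1.02, SE 0.256, edgeR adjusted p = 0.0208). That call was lost without N6266 (edgeR adjusted p = 0.0746), without the first N6777 library (0.114), or with only the 4 libraries of these genotypes in the fit (0.0598).

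The gene asd-1, whose loss stops ascospore formation and whose product resembles a pectin-degrading rhamnogalacturonase, was instead lowest in H3G34R. It had 395 and 434 CPM in set-2 H3G34R, 127 and 221 CPM in set-2 ash1(Y888F), and 41.9 and 59.96 CPM in H3G34R. The groups did not overlap, and set-2 H3G34R was highest. It was 8.13-fold higher in set-2 H3G34R than in H3G34R (log2 3.02, SE 0.297, edgeR adjusted p = 2.89e-04) and 3.41-fold higher in set-2 ash1(Y888F) than in H3G34R (log2 1.77, SE 0.286, edgeR adjusted p = 0.00271). It was 2.39-fold higher in set-2 H3G34R than in set-2 ash1(Y888F) (log2 1.25, SE 0.278, edgeR adjusted p = 0.0136). This last call ended without the first or the second N6777 library (edgeR adjusted p = 0.0646 and 0.0841). The 2 libraries of different strains also differed for asd-1, by 0.79 in log2(CPM + 1) between N6266 and N6267 and by 0.51 between N5247 and N5248, more than 92.1% and 93.2% of genes with a mean of at least 1 CPM.

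**Figure D3:**
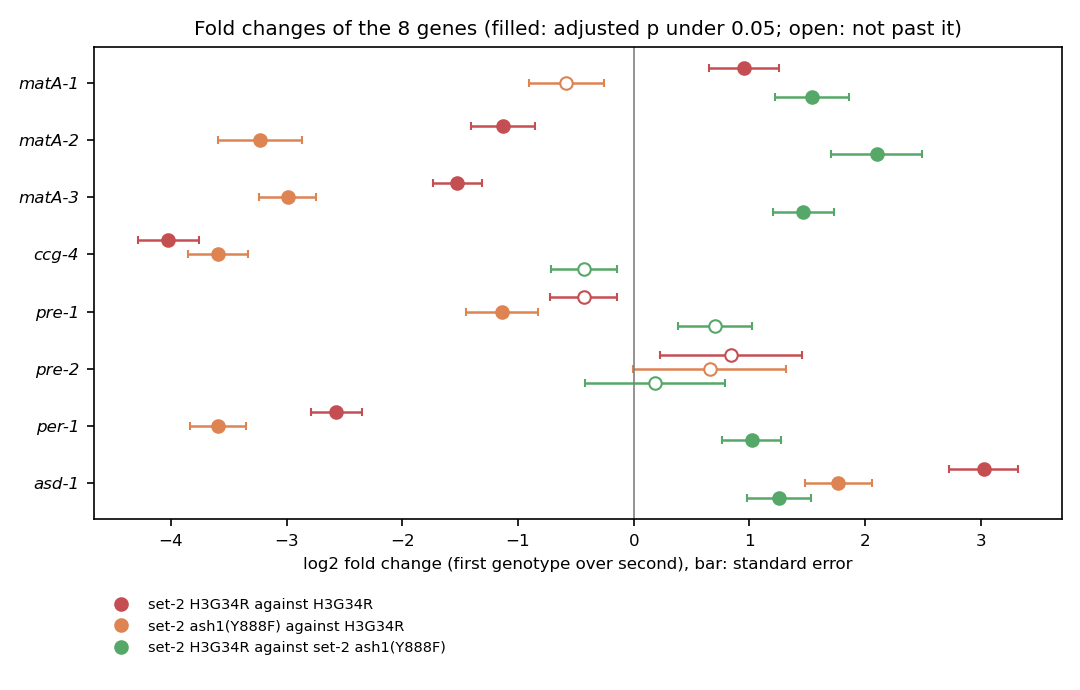
Log2 fold change (horizontal axis) with its standard error (bars) of each of the 8 genes in set-2 H3G34R against H3G34R, set-2 ash1(Y888F) against H3G34R and set-2 H3G34R against set-2 ash1(Y888F); filled points have an edgeR adjusted p under 0.05. In both comparisons with H3G34R, ccg-4 lies at −4.02 and −3.59 and asd-1 lies at 3.02 and 1.77, while matA-1 lies at 0.96 and −0.58.

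Set per kilobase of gene (NC12 gene span, introns included), the order of the 8 genes differed between genotypes. In set-2 H3G34R, asd-1 was highest at 192 ± 12.7 CPM per kb, then matA-1 at 29.1 ± 1.13 and matA-3 at 5.88 ± 1.26 CPM per kb, and pre-2 was lowest at 0.685 ± 0.335 CPM per kb. In between, pre-1 (2.86 ± 0.557 CPM per kb), matA-2 (2.77 ± 0.696) and ccg-4 (2.51 ± 0.188) did not differ beyond their spread, and per-1 followed at 1.23 ± 0.299 CPM per kb. In set-2 ash1(Y888F), asd-1 (80.6 ± 30.7 CPM per kb) and matA-1 (10.1 ± 5.32) again led. There, ccg-4, matA-3 and pre-1 (3.36 ± 1.45, 2.12 ± 0.294 and 1.77 ± 0.761 CPM per kb) did not differ beyond their spread, nor did matA-2, pre-2 and per-1 (0.645 ± 0.192, 0.617 ± 0.326 and 0.610 ± 0.146 CPM per kb). In H3G34R, ccg-4 was highest at 40.8 ± 0.309 CPM per kb and was followed by asd-1 (23.6 ± 5.92), matA-3 (16.9 ± 0.493), matA-1 (15.01 ± 0.444), per-1 (7.33 ± 0.0855), matA-2 (6.09 ± 0.527), pre-1 (3.87 ± 0.280) and pre-2 (0.384 ± 0.157), with no overlap between neighbours in this order. All ± are SD over n = 2 libraries.

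Around the mat A genes, the 5 annotated genes on either side in NC12 order were compared. Of these 10 genes, 2 were higher and 2 lower in set-2 H3G34R than in H3G34R, 1 was higher and 0 lower in set-2 ash1(Y888F) than in H3G34R, and 3 were higher and 3 lower in set-2 H3G34R than in set-2 ash1(Y888F). The background shares for these comparisons are the 61.7%, 51.8% and 38.1% given above. The gene next to matA-1, NCU01957, was the only one of the 10 past the threshold at 2-fold or more. It averaged 32.0 ± 0.965 CPM in set-2 H3G34R, 5.65 ± 3.77 CPM in set-2 ash1(Y888F) and 7.06 ± 0.650 CPM in H3G34R (SD, n = 2 each), so that its highest group was that of matA-1. It was higher in set-2 H3G34R than in H3G34R (log2 2.18, edgeR adjusted p = 0.00220) and than in set-2 ash1(Y888F) (log2 2.51, edgeR adjusted p = 0.00428). In set-2 ash1(Y888F) its log2 difference from H3G34R was −0.34 (edgeR adjusted p = 0.515). That difference was −1.24 without N6267 and positive without N6266.

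Of the 2 genes on each side of ccg-4, 3 were tested. All 3 were lower in set-2 H3G34R than in H3G34R, where 31.1% of all genes were, by far less than ccg-4 itself. Likewise 2 of the 3 were lower in set-2 ash1(Y888F) than in H3G34R (25.5% of all genes were), and 1 of the 3 was lower in set-2 H3G34R than in set-2 ash1(Y888F) (19.9% of all genes were). NCU02499 averaged 22.3 CPM in set-2 H3G34R, 30.6 CPM in set-2 ash1(Y888F) and 54.4 CPM in H3G34R, and was lower than in H3G34R both in set-2 H3G34R (log2 −1.29, edgeR adjusted p = 2.79e-04) and in set-2 ash1(Y888F) (log2 −0.83, edgeR adjusted p = 0.00206). The other gene lower in both, NCU02498, stayed under 2-fold and is named outside the rule for neighbours. Its log2 differences from H3G34R were −0.57 in set-2 H3G34R (edgeR adjusted p = 0.00241) and −0.71 in set-2 ash1(Y888F) (edgeR adjusted p = 0.00155). NCU02502 averaged 24.8 CPM in set-2 H3G34R and 56.4 CPM in H3G34R (log2 −1.19, edgeR adjusted p = 0.00633), a call lost without the second N6777 library (edgeR adjusted p = 0.0525). Of the 4 genes around per-1, 2 had no reads in any library. NCU03588 averaged 35.8 CPM in set-2 H3G34R, 42.0 CPM in set-2 ash1(Y888F) and 74.2 CPM in H3G34R, and was lower than in H3G34R both in set-2 H3G34R (log2 −1.05, edgeR adjusted p = 4.08e-04) and in set-2 ash1(Y888F) (log2 −0.82, edgeR adjusted p = 0.00152). NCU03583 averaged 1.77 CPM in set-2 H3G34R and 0.575 CPM in H3G34R (log2 1.59, edgeR adjusted p = 0.0227), a call lost with DESeq2 (adjusted p = 0.104) and without N5247 or either N6777 library (edgeR adjusted p from 0.0553 to 0.139).

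The genes next to asd-1 on either side, added after their values were seen, did not share its order. On one side asd-3, named for ascus development, had 80 and 74 reads in set-2 H3G34R, 16 and 13 in set-2 ash1(Y888F), and 50 and 53 in H3G34R. Unlike asd-1, asd-3 was lower in set-2 ash1(Y888F) than in H3G34R (log2 −1.26, edgeR adjusted p = 0.00680), a difference of 0.59 (edgeR adjusted p = 0.0598) in the column for both strands together. It was higher in set-2 H3G34R than in set-2 ash1(Y888F) (log2 1.99, edgeR adjusted p = 0.00239) and than in H3G34R (log2 0.73, edgeR adjusted p = 0.0214), the last call being lost with DESeq2 (adjusted p = 0.111) and without any one of N5247, N5248 and the N6777 libraries (edgeR adjusted p from 0.0788 to 0.109). On the other side NCU05599 averaged 620 CPM in set-2 H3G34R, 1229 CPM in set-2 ash1(Y888F) and 782 CPM in H3G34R. It was lower in set-2 H3G34R than in set-2 ash1(Y888F) (log2 −0.99, edgeR adjusted p = 0.00466) and higher in set-2 ash1(Y888F) than in H3G34R (log2 0.65, edgeR adjusted p = 0.0125), the second call being lost without N5247 (edgeR adjusted p = 0.0829) or N5248 (0.0658). Its log2 difference between set-2 H3G34R and H3G34R was −0.33 (edgeR adjusted p = 0.100), past the threshold without N6266 or N6267 (edgeR adjusted p = 0.0170 and 0.0160).

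The genes whose levels followed those of the members most closely over the 6 libraries are given as a description, since the libraries of a genotype share their strain or background and only 3 genotypes stand behind the values. Likeness was Pearson's r of log2(CPM + 1) among tested genes whose range was at least 50% of the member's. For matA-1 the leading genes were NCU03288, NCU10359 and NCU02700, at r = 0.996, 0.995 and 0.994, and 80 of 4430 genes considered were above 0.95. For ccg-4 they were NCU02655, NCU01532 and NCU00142, at r = 0.9999, 0.998 and 0.997, with 283 of 1700 above 0.95. In the libraries labelled set-2, NCU02655 had only 0.891 to 1.49 CPM and NCU01532 only 0.297 to 0.813 CPM, the latter near the worth of 3 reads. For per-1 they were NCU05176, NCU08152 and NCU09605, at r = 0.9996, 0.996 and 0.996, with 222 of 2016 above 0.95. NCU08152 had 0 and 0.148 CPM in set-2 ash1(Y888F), less than 3 reads are worth. For asd-1 they were NCU05185, acd-3 (NCU01181) and dak-1 (NCU03779), at r = 0.9996, 0.999 and 0.998, with 293 of 2280 above 0.95.

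Downstream of the pheromone receptors, a heterotrimeric G protein and the MAK-2 kinase cascade pass the signal to the Ste12-like factor PP-1 and the zinc-cluster factor ADV-1. Of 14 genes listed for this route and its regulators, 13 were tested. In set-2 H3G34R, 3 were higher and 5 lower than in H3G34R (median log2 −0.10), in set-2 ash1(Y888F) 1 was higher and 5 lower than in H3G34R (median −0.28), and 3 were higher and 0 lower in set-2 H3G34R than in set-2 ash1(Y888F) (median 0.03). The totals of 8, 6 and 3 called genes of 13 stand beside the 61.7%, 51.8% and 38.1% of all genes tested. These totals fell when some single libraries were left out. Those fits keep 1 library of a genotype, with fewer degrees of freedom for every gene. The share of all genes called in them is not given here, so the falls are not read as a result about these genes.

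The G-protein gamma subunit gene gng-1 averaged 91.0 ± 2.13 CPM in set-2 H3G34R, 98.8 ± 5.86 CPM in set-2 ash1(Y888F) and 176 ± 9.29 CPM in H3G34R (SD, n = 2 each). It was lower than in H3G34R in both genotypes labelled set-2 (log2 −0.95 in set-2 H3G34R, edgeR adjusted p = 4.70e-04; log2 −0.83 in set-2 ash1(Y888F), edgeR adjusted p = 0.00108). The G-alpha gene gna-2 was likewise lower than in H3G34R, by log2 values of −0.80 in set-2 H3G34R (edgeR adjusted p = 9.01e-04) and −0.54 in set-2 ash1(Y888F) (edgeR adjusted p = 0.00606). The transcription factor gene pp-1 was lower in set-2 ash1(Y888F) than in H3G34R (log2 −0.80, edgeR adjusted p = 0.00155), while in set-2 H3G34R its log2 difference from H3G34R was −0.26 (edgeR adjusted p = 0.0830), past the threshold without N6266 or N6267 (edgeR adjusted p = 0.0412 and 0.0400). By contrast adv-1 was higher than in H3G34R, by log2 values of 0.65 in set-2 H3G34R (edgeR adjusted p = 0.00439) and 0.53 in set-2 ash1(Y888F) (edgeR adjusted p = 0.0135), the second call being lost without N5247 (edgeR adjusted p = 0.0624) or N5248 (0.0894).

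The remaining listed gene, fmf-1, which is needed for female and male fertility, could not be tested on sense reads. It had 1 and 0 sense reads in set-2 H3G34R, 0 and 1 in set-2 ash1(Y888F), and 1 and 0 in H3G34R. On the opposite strand of the same gene there were 85 and 77 reads in set-2 H3G34R, 42 and 27 in set-2 ash1(Y888F), and 57 and 53 in H3G34R. Those antisense reads were higher in set-2 H3G34R than in H3G34R (log2 0.70, SE 0.255, edgeR adjusted p = 0.0310) and than in set-2 ash1(Y888F) (log2 0.82, SE 0.271, edgeR adjusted p = 0.0218). In these comparisons 40.8% and 37.5% of genes tested for antisense reads were called. Between set-2 ash1(Y888F) and H3G34R the log2 difference was −0.12 (SE 0.281, edgeR adjusted p = 0.760). Nearly all fmf-1 reads thus lay opposite the annotated strand, and whether that annotation is right was not examined here.

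**Figure D4:**
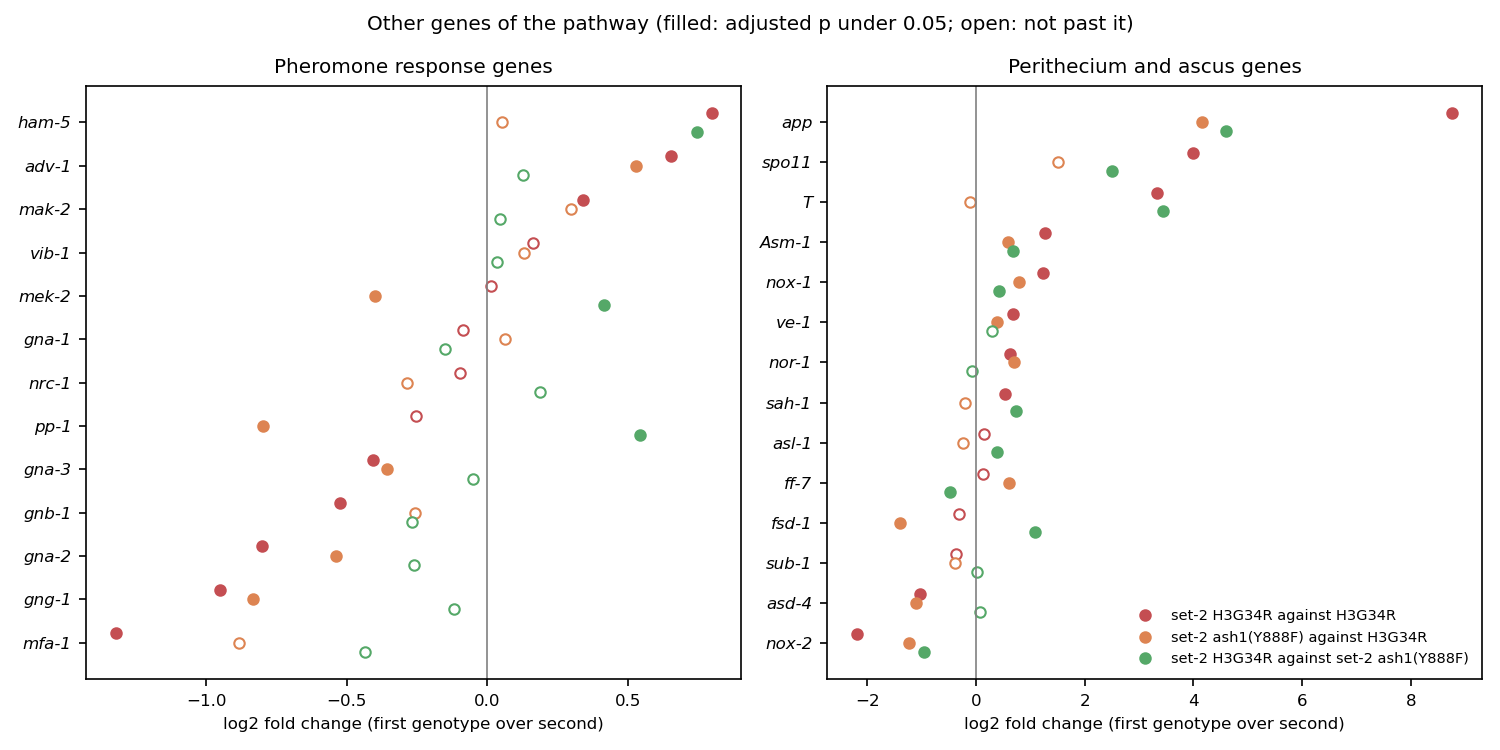
Log2 fold change (horizontal axis) of the tested pheromone response genes (left) and perithecium and ascus genes (right) in set-2 H3G34R against H3G34R, set-2 ash1(Y888F) against H3G34R and set-2 H3G34R against set-2 ash1(Y888F); filled points have an edgeR adjusted p under 0.05, and the panels differ in scale. The gene app lies far to the right at 8.76, 4.16 and 4.596, and no pheromone response gene moved further than mfa-1, at −1.32 in set-2 H3G34R against H3G34R.

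Of 14 genes listed for the protoperithecium, perithecium and ascus, all of them tested, 8 were higher and 2 lower in set-2 H3G34R than in H3G34R (median log2 0.58), 6 were higher and 3 lower in set-2 ash1(Y888F) than in H3G34R (median 0.13), and 8 were higher and 2 lower in set-2 H3G34R than in set-2 ash1(Y888F) (median 0.41). The totals of 10, 9 and 10 called genes of 14 stand beside the 61.7%, 51.8% and 38.1% of all genes tested, so the first 2 are near the background. The last count of 10 called fell when either N6777 library was left out, in fits with fewer degrees of freedom for every gene. The gene app, named for an abundant protein of perithecia, had 2047 and 2123 CPM in set-2 H3G34R, 98.3 and 74.1 CPM in set-2 ash1(Y888F), and 3.95 and 5.64 CPM in H3G34R. Its groups lay far apart, in the same order as those of asd-1. It was 433-fold higher in set-2 H3G34R than in H3G34R (log2 8.76, SE 0.263, edgeR adjusted p = 7.11e-06), 17.9-fold higher in set-2 ash1(Y888F) than in H3G34R (log2 4.16, SE 0.227, edgeR adjusted p = 5.20e-05), and 24.2-fold higher in set-2 H3G34R than in set-2 ash1(Y888F) (log2 4.596, SE 0.212, edgeR adjusted p = 8.71e-05).

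The tyrosinase gene T had 198 and 210 reads in set-2 H3G34R, 11 and 17 in set-2 ash1(Y888F), and 30 and 15 in H3G34R, and was higher in set-2 H3G34R than in H3G34R (log2 3.32, SE 0.344, edgeR adjusted p = 3.49e-04) and than in set-2 ash1(Y888F) (log2 3.44, SE 0.369, edgeR adjusted p = 0.00152). Its reads appear in the strand columns alone, since in the column for both strands together it had 0 reads in every library. On the opposite strand T had 84 and 48 reads in set-2 H3G34R, 56 and 40 in set-2 ash1(Y888F), and 68 and 102 in H3G34R. These outnumbered its sense reads in every library of the last pair of genotypes. Whether they belong to another gene annotated on that strand was not examined here. The meiotic recombination gene spo11 had 23 and 38 reads in set-2 H3G34R, 2 and 6 in set-2 ash1(Y888F), and 2 and 2 in H3G34R. It was higher in set-2 H3G34R than in H3G34R (log2 3.99, SE 0.663, edgeR adjusted p = 0.00219) and than in set-2 ash1(Y888F) (log2 2.49, SE 0.597, edgeR adjusted p = 0.0177). The second call was lost without N6266 (edgeR adjusted p = 0.0787) or the second N6777 library (0.102).

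The genes of this list called lower were nox-2 and asd-4 in set-2 H3G34R against H3G34R, nox-2, asd-4 and fsd-1 in set-2 ash1(Y888F) against H3G34R, and nox-2 and ff-7 (log2 −0.47, edgeR adjusted p = 0.0127, and 0.0736 without the first N6777 library) in set-2 H3G34R against set-2 ash1(Y888F). They were chosen after their values were seen. The NADPH oxidase gene nox-2, known for its part in ascospore germination, had 303 and 193 reads in set-2 H3G34R, 415 and 307 in set-2 ash1(Y888F), and 1198 and 1297 in H3G34R. It was lower than in H3G34R in set-2 H3G34R (log2 −2.19, SE 0.189, edgeR adjusted p = 1.84e-04) and in set-2 ash1(Y888F) (log2 −1.23, SE 0.183, edgeR adjusted p = 0.00196). It was also lower in set-2 H3G34R than in set-2 ash1(Y888F) (log2 −0.96, SE 0.189, edgeR adjusted p = 0.00917), a call lost without the second N6777 library (edgeR adjusted p = 0.0521). The gene asd-4, for a GATA-type factor needed for asci, averaged 29.2 ± 1.13 CPM in set-2 H3G34R, 27.7 ± 5.83 CPM in set-2 ash1(Y888F) and 59.9 ± 1.23 CPM in H3G34R (SD, n = 2 each), and was lower than in H3G34R by log2 values of −1.04 in set-2 H3G34R (edgeR adjusted p = 0.00169) and −1.11 in set-2 ash1(Y888F) (edgeR adjusted p = 0.00196). The gene fsd-1, for a factor of female sexual development, averaged 44.7 ± 3.34 CPM in set-2 H3G34R, 21.0 ± 1.96 CPM in set-2 ash1(Y888F) and 55.4 ± 0.236 CPM in H3G34R. It was lower in set-2 ash1(Y888F) than in H3G34R (log2 −1.40, edgeR adjusted p = 3.70e-04) and higher in set-2 H3G34R than in set-2 ash1(Y888F) (log2 1.09, edgeR adjusted p = 0.00232). Its log2 difference between set-2 H3G34R and H3G34R was −0.31 (edgeR adjusted p = 0.0692), past the threshold without N6266 or N6267 (edgeR adjusted p = 0.0375 and 0.0394).

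Antisense reads of the 8 genes were few. Over the 6 libraries, matA-1, matA-2 and matA-3 had 1 antisense read each, against 1503, 251 and 627 sense reads. The receptor gene pre-1 had the highest antisense share, 4.23% (24 reads), against 3.42% over all genes. Its antisense reads numbered 1 and 3 in set-2 H3G34R, 11 and 6 in set-2 ash1(Y888F), and 0 and 3 in H3G34R. Those of ccg-4 numbered 0 and 0 in set-2 H3G34R, 2 and 0 in set-2 ash1(Y888F), and 8 and 10 in H3G34R, so that they were highest in the genotype with the most ccg-4 sense reads. For asd-1 they numbered 12 and 18 in set-2 H3G34R, 6 and 7 in set-2 ash1(Y888F), and 3 and 12 in H3G34R. Only asd-1 passed the filter on low antisense counts, and its antisense reads were not called in any of the 3 comparisons (edgeR adjusted p = 0.122, 0.690 and 0.313, and unadjusted p = 0.0626, 0.605 and 0.204), where 40.8%, 45.5% and 37.5% of genes tested for antisense reads were called.

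The level of the 8 genes relative to wild type is known here from the authors' deposited tables, 1 per genotype, which give the log2 ratio of each mutant to wild type, its standard error and an adjusted p. In the authors' deposited table for set-2 H3G34R, 5 of the 8 genes were higher and 1 lower than wild type, with 51.3% of genes called (24.9% higher and 26.4% lower). In the authors' deposited table for set-2 ash1(Y888F), 4 were higher and 0 lower, with 17.3% called (10.8% higher and 6.42% lower). In the authors' deposited table for H3G34R, 5 were higher and 1 lower, with 64.5% called (33.6% higher and 30.9% lower). The wild-type levels derived from the tables for set-2 H3G34R and H3G34R differed by a median of 0.00106 on the log2 scale over 6148 genes, so these tables are taken to share their controls and are not independent of each other. The levels derived from the table for set-2 ash1(Y888F) differed from those of the H3G34R table by a median of 0.659 after centring, so the sizes of its fold changes are not on the same footing.

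For matA-1 the authors' deposited tables gave a log2 value above wild type of 3.49 (SE 0.272) in set-2 H3G34R, 2.39 (SE 0.501) in set-2 ash1(Y888F) and 2.70 (SE 0.311) in H3G34R, all past the threshold (adjusted p = 1.95e-36, 3.58e-05 and 2.56e-17). For matA-3 the authors' deposited tables gave 5.57 (SE 0.823), 2.18 (SE 0.685) and 7.68 (SE 0.859) in the same genotypes, all past the threshold (adjusted p = 8.36e-11, 0.0119 and 2.10e-18). For matA-2 the authors' deposited tables gave 4.52 (SE 0.902, adjusted p = 2.25e-06) in set-2 H3G34R, 1.2002 (SE 0.646, adjusted p = 0.218) in set-2 ash1(Y888F) and 6.34 (SE 0.935, adjusted p = 4.44e-11) in H3G34R. The wild-type levels derived from the tables for set-2 H3G34R and H3G34R were low, 40.0 and 39.4 normalised counts for matA-1, 1.59 and 1.13 for matA-2, and 1.62 and 1.19 for matA-3. On the scale of the H3G34R table, those of the set-2 ash1(Y888F) table were 27.6 for matA-1, 2.59 for matA-2 and 5.12 for matA-3. The folds of matA-2 and matA-3 thus rest on few wild-type reads. For matA-3 the level was 4.31-fold above that of the H3G34R table, so its 2.18 has another baseline. The mating type of the wild type was not examined here, and its part in these folds was not tested.

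The pheromone and pigment genes were also above wild type. For ccg-4 the authors' deposited tables gave log2 values of 2.19 (SE 0.584, adjusted p = 5.32e-04) in set-2 H3G34R, 2.68 (SE 0.590, adjusted p = 9.92e-05) in set-2 ash1(Y888F) and 6.46 (SE 0.330, adjusted p = 6.89e-84) in H3G34R. For per-1 the authors' deposited tables gave 3.76 (SE 0.593, adjusted p = 1.25e-09) in set-2 H3G34R, 2.57 (SE 0.640, adjusted p = 8.04e-04) in set-2 ash1(Y888F) and 6.67 (SE 0.438, adjusted p = 5.33e-51) in H3G34R. Both genes were thus lower in the genotypes labelled set-2 than in H3G34R while remaining above wild type in each table. On the scale of the H3G34R table, the derived wild-type levels in these genotypes' tables in turn were 7.05, 7.10 and 6.20 normalised counts for per-1. For ccg-4 they were 11.95, 10.7 and 11.5, so that the folds of both genes rest on few wild-type reads. For pre-1 and pre-2 the authors' deposited tables made no call in any genotype, with log2 values from −0.41 to 0.97 for pre-1 and from −1.30 to 0.83 for pre-2. On the same scale, the derived wild-type level of pre-1 was 35.4 for the set-2 ash1(Y888F) table and 137 for the H3G34R table. For pre-2 these levels were 4.99 and 20.1, so the values of each gene do not share a baseline.

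For asd-1 the authors' deposited tables gave −3.16 (SE 0.0958, adjusted p = 1.25e-235) in set-2 H3G34R, 0.60 (SE 0.360, adjusted p = 0.284) in set-2 ash1(Y888F) and −6.02 (SE 0.167, adjusted p = 4.54e-281) in H3G34R. The wild-type level of asd-1 derived from these tables was 38252 normalised counts for the set-2 H3G34R table, 1125 for the set-2 ash1(Y888F) table and 38256 for the H3G34R table, on the scale of the last. The wild type behind the set-2 ash1(Y888F) table was therefore 34-fold lower in asd-1 after centring, and the 0.60 of that genotype cannot be set against the −3.16 and −6.02 of the others. The set-2 H3G34R level derived from its own table, 4277 normalised counts, lay below the wild type of that table but above 1125. The direction of its −3.16 thus depends on which wild type is used. The derived H3G34R level, 591, lay below both wild-type levels. For app the authors' deposited tables gave 9.02 in set-2 H3G34R, 5.66 in set-2 ash1(Y888F) and 0.76 (adjusted p = 0.184) in H3G34R.

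**Figure D5:**
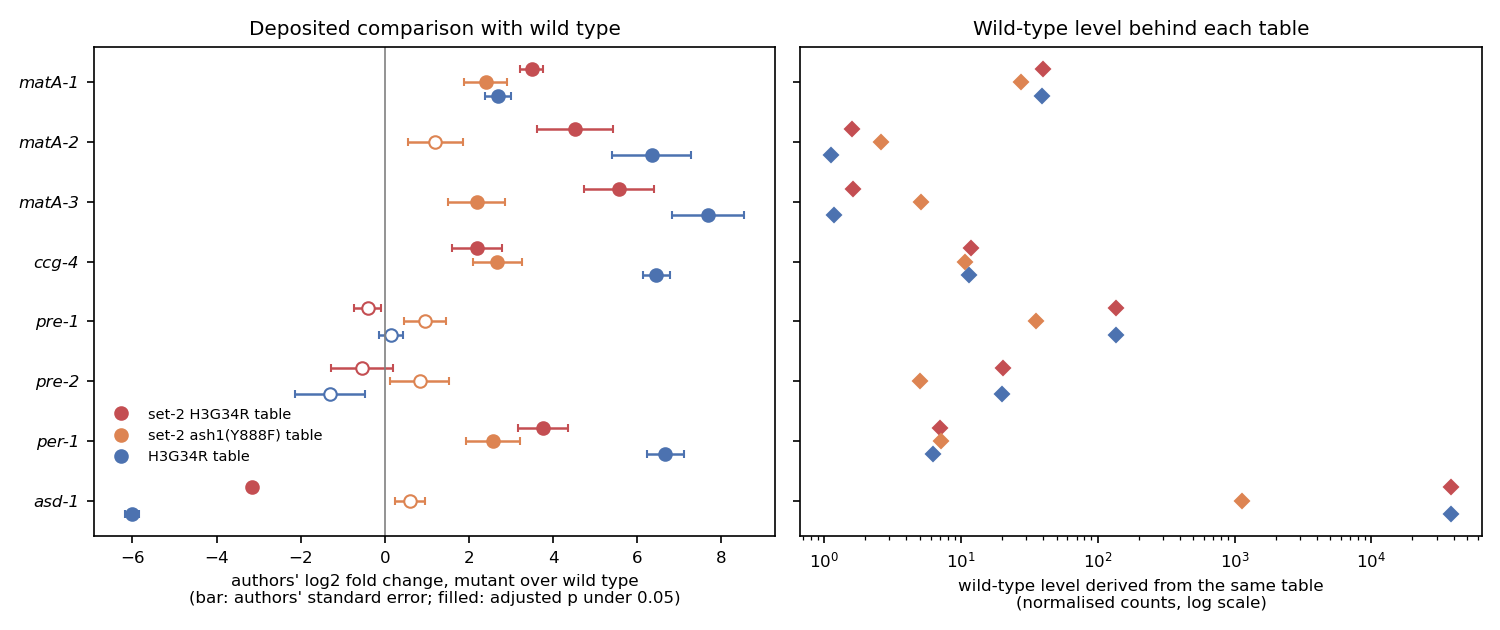
Left, the authors' deposited log2 ratio of mutant to wild type (horizontal axis) with the authors' standard error for the 8 genes, from the tables for set-2 H3G34R, set-2 ash1(Y888F) and H3G34R, filled where the adjusted p was under 0.05; right, the wild-type level (normalised counts, log scale) derived from each table. The derived wild-type level of asd-1 is 38252 and 38256 for the set-2 H3G34R and H3G34R tables and 1125 for the set-2 ash1(Y888F) table, whereas for ccg-4 the 3 levels run from 10.7 to 11.95.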

How the data were processed

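Per the labels' protocols, poly-A RNA was made into stranded libraries. The authors deposited raw read counts per gene for each of 6 libraries, with STAR 2.6.0 named in the submitters' processing notes. The build is not given in the sources used here. Sense reads are those of the strand column with more reads, antisense reads those of the other. For each genotype the authors deposited a DESeq2 table (version 1.18.1, per the submitters' processing notes) without a header, whose columns are a mean normalised signal (counts over size factors), the log2 ratio of mutant to wild type, the standard error, a p-value and an adjusted p. Those means came closest to the counts of both strands together with 2 wild-type libraries, and wild-type levels were derived on that basis.

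Sense counts of all 6 libraries went into a single edgeR 4.0.16 fit (quasi-likelihood test, two-sided, TMM factors, low counts removed with filterByExpr grouped by genotype), with Benjamini-Hochberg adjustment at 0.05 over 8561 genes. Each library counted as a replicate. The standard error is the size of the log2 value divided by the square root of F. Antisense counts of 4299 genes were tested likewise with sense library sizes. The fit was tested on simulated data. CPM values use TMM-effective library sizes. Alternatives used DESeq2 1.42.0, RLE factors, other filters, strands and subsets of libraries. The 8 genes and all gene lists were chosen with earlier results of these data known, as were the named-gene rules: from each pathway list the 3 called genes that moved furthest and 4 direct parts of the pheromone route, and neighbours past 2-fold; genes named outside these rules are marked as such. Of the lists, ste-50 was left out because its locus carries another symbol in the NC12 table. R 4.3.3, Python 3.11.15, numpy 2.4.6, pandas 2.3.3 and matplotlib 3.10.9 were used.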

Additional observations from a re-analysis of the deposited data

How the results depend on the processing

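Of 24 log2 differences of the 8 genes, 14 kept their direction and their side of the threshold in all 11 settings run, and 240 of 262 values did so; 16 lost the call, 3 gained it and 3 reversed. The reversals were all between the genotypes labelled set-2: with libraries left out in turn ccg-4 ranged from −0.81 to 0.10 (positive without N6266) and pre-2 from −0.45 to 0.83 (negative without N6266, at −0.29, or without the first N6777 library); the cause was not tested. Leaving out each library in turn gave 4 to 6 called genes for set-2 H3G34R against H3G34R, 5 to 7 for set-2 ash1(Y888F) against H3G34R and 2 to 7 for set-2 H3G34R against set-2 ash1(Y888F), where fewer libraries leave fewer degrees of freedom. RLE factors, DESeq2, no filter on low counts and both strands together each gave 6, 6 and 5. The share of all genes called is given here for the main fit only, not for these settings or the fits without a library. The counts of called genes in them thus have no background and are not read as a result about the 8 genes. Without the filter on low antisense counts, 1, 1 and 0 genes had an antisense call against 0, 0 and 0. These were ccg-4 in set-2 H3G34R against H3G34R (edgeR adjusted p = 0.0128) and pre-1 in set-2 ash1(Y888F) against H3G34R (edgeR adjusted p = 0.0411). They rest on few antisense reads, for ccg-4 0 and 0 in set-2 H3G34R against 8 and 10 in H3G34R. For pre-1 there were 11 and 6 in set-2 ash1(Y888F) against 0 and 3 in H3G34R. Antisense reads of ccg-4 were 0.967% of its reads over the 6 libraries. No share of all genes called without this filter is given here, so these counts have no background to stand beside. No paired analysis was possible because the sources number only the N6777 libraries; the numbers of the others follow strain order and name no shared batch.

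For 20 named genes outside the 8, run under the same settings after their values were seen, 604 of 655 values kept their direction and their side of the threshold. The differences that changed sign when libraries were left out ranged, for set-2 ash1(Y888F) against H3G34R, from −0.54 to 0.47 for T (positive without N5247 or, at 0.23, without N6266) and from −1.24 to 0.24 for NCU01957 (positive without N6266). For set-2 H3G34R against set-2 ash1(Y888F) they ranged from −0.92 to 0.26 for mfa-1 (positive without N6267) and from −0.0079 to 0.23 for adv-1 (negative without the second N6777 library). The range for asd-4 was −0.13 to 0.30 (negative without N6267). With both strands together asd-3 was at 0.59 in set-2 ash1(Y888F) against H3G34R. The lowest counts among the 8 genes were 5 reads, in pre-2 and matA-2, where counting error is widest.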
